A study of Mus musculus with 6 samples.

Results

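Transporters of amino acids and neurotransmitters were examined in arrays of choroid plexus epithelium from B10.PL mice. This epithelium lines the folds in the brain ventricles that make cerebrospinal fluid. The set held every probe set whose single gene symbol in the platform annotation began with Slc1a, Slc3a, Slc6a, Slc7a, Slc36a or Slc38a, other than those of Slc1a2, Slc6a4 and Slc6a13. It came to 113 of 45037 probe sets and 57 of 18193 genes. Of the 57 genes, 3 carry such a symbol as a neighbour or antisense partner and not as a carrier, namely Slc7a6os, Slc6a19os and Slc36a1os. RNA of 6 preparations was measured on 1 array each. By the sample descriptions 3 were wild type (WT replicates 1 to 3) and 3 were RAG-/- on the same strain (RAG-/- replicates 1 to 3). RAG-/- mice lack mature T and B cells because antigen receptor genes cannot be joined. The sources used here do not state which Rag gene was disrupted, the age or sex of the mice or any pooling, and for RAG-/- replicate 1 the description reads RAG alone.

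A code in the titles joins the arrays of equal replicate number into pairs 1, 2 and 3, each with 1 array of either genotype. For pair 1 the descriptions say that the samples were reversed, and there they give the opposite genotype to the titles. Both readings are given throughout, and an array is named by its description. By title, WT replicate 1 is a RAG-/- array and RAG-/- replicate 1 a wild type array. Neither Rag gene settled the matter, and both were dim. Rag1 differed, RAG-/- minus wild type, by 0.93 by description (exact permutation p = 0.3, two-sided) and by 2.22 by title (exact permutation p = 0.1, the smallest that 3 against 3 arrays allow). For Rag2 the differences were 0.05 under the descriptions and -0.68 under the titles, with exact permutation p-values of 1.0 and 0.6.

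The epithelial label was checked against its markers. All 10 measured epithelium markers, among them Ttr, Kl, Folr1, Aqp1 and Kcnj13, lay at or above the 95.9 percentile of all probe sets. Other brain tissue was present as well and differed from array to array. Some of its markers were as bright: Mbp of oligodendrocytes lay at the 99.9 percentile, Aldoc of astrocytes at 99.0 and Snap25 of neurons at 98.2. The sample titles add the words whole brain to choroid plexus epithelium. Member levels below are thus those of mixed tissue. RAG-/- replicate 2 stood apart, being the highest of the 6 arrays in 25.4% and the lowest in 31.1% of 13537 genes. Any 2 arrays, of the same pair or not, correlated at 0.853 to 0.969 across probe sets, as a description. Within pairs 1, 2 and 3 the correlations were 0.965, 0.924 and 0.969. RAG-/- replicates 1 and 3 carried Y-linked signal (Kdm5d at 9.26 and 9.90, against at most 5.51 elsewhere), that is, in 2 of 3 RAG-/- arrays and no wild type array by description, and in 1 array of each genotype by title. The part of sex in the differences below was not tested. In such bulk samples, fewer cells of a type and less RNA per cell cannot be told apart.

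As background, these carriers decide which amino acids and transmitters leave or enter the cerebrospinal fluid. SLC1 carriers take up glutamate or exchange small neutral amino acids. SLC6 carriers use the sodium and chloride gradients to clear transmitters such as GABA, glycine and dopamine, and also bring in taurine, creatine, proline and other neutral amino acids. Most SLC7 light subunits reach the membrane only when bound to an SLC3 heavy subunit, while the cationic SLC7 carriers work alone. SLC36 carriers move small amino acids with protons, partly from lysosomes, and SLC38 carriers move glutamine and other neutral amino acids with sodium. The choroid plexus is known for keeping amino acids in cerebrospinal fluid well below their level in plasma.

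Levels are given as log2(intensity + 16) after quantile normalization, in which 1 unit is a 2-fold step and dim signals are compressed. A gene was represented by its brightest probe set, and probe sets in the lowest 40% of mean signal were treated as dim and not tested. Of the 57 genes, 42 passed this filter and 15 did not, and of the 113 probe sets 75 passed. Probes differ in how well they bind, so the order below is one of signal and not of transcript number.

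The brightest members were sodium-coupled neutral carriers. Slc38a2, a carrier induced by amino acid shortage, had a mean of 13.16 (the 98.6 percentile). It was at 13.87, 13.15 and 12.96 in WT replicates 1 to 3 and at 12.99, 12.87 and 13.11 in RAG-/- replicates 1 to 3. WT replicate 1 was the high array and the groups overlapped.

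Slc38a10 followed with a mean of 13.15, at 13.06, 12.70 and 13.81 in wild type and 13.04, 12.58 and 13.68 in RAG-/-. In this probe set the values went by pair, with both arrays of pair 3 highest and both arrays of pair 2 lowest. The next brightest Slc38a10 probe set did not share this order. It was low in RAG-/- replicate 2 alone, at 9.96 against 10.65 to 10.86 elsewhere. Slc38a1, a glutamine carrier of neurons, was at 12.13, 12.86 and 11.72 in wild type and 12.14, 13.36 and 11.84 in RAG-/-, here with pair 2 highest and pair 3 lowest. The probe set that represents Slc38a1 is of a design that can bind transcripts of more than 1 gene, and the other tested probe set ran the same way by pair, from 9.76 in WT replicate 3 to 11.74 in RAG-/- replicate 2. Slc38a3, the glutamine carrier SN1, was at 12.06, 12.26 and 11.88 in wild type and 12.50, 11.30 and 11.95 in RAG-/-, with RAG-/- replicate 2 the lowest array.

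The other SLC38 members were dimmer. Slc38a6 had a mean of 9.18, Slc38a9, a lysosomal carrier that signals arginine to mTORC1, of 8.53, Slc38a7 of 7.91 and Slc38a5 of 7.0. Slc38a4 was dim, at the 22.7 percentile. Slc38a9 had 6 tested probe sets and they did not behave alike: their differences, RAG-/- minus wild type by description, ran from -0.65 to 0.48. Slc38a10 also had 6, with differences from -0.33 to 0.43, and the one at 0.43 had RAG-/- above wild type without overlap while the brightest did not.

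Among heavy subunits the signal was one-sided. Slc3a2, the heavy chain CD98 that carries LAT1, xCT and related light chains to the surface, had a mean of 12.25 and was at 12.54, 12.06 and 11.95 in wild type and 12.59, 12.07 and 12.33 in RAG-/-. Both arrays of pair 1 were highest, and the whole spread was 0.64. Slc3a1, the heavy chain of kidney and gut, was dim, and so was its light chain Slc7a9 (the 39.5 and 24.4 percentiles).

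Of the 10 light subunits, 6 passed the filter. Slc7a10, which exchanges small neutral amino acids including D-serine, was the brightest, at 11.33, 11.24 and 11.04 in wild type and 12.35, 10.89 and 11.06 in RAG-/-, so that RAG-/- replicate 1 alone was high. Slc7a6, the y+LAT2 chain, had a mean of 9.82, Slc7a5, the LAT1 chain for large neutral amino acids, of 8.53, Slc7a8, the LAT2 chain, of 8.26 and Slc7a7, the y+LAT1 chain, of 7.07. Slc7a11, the cystine and glutamate exchanger xCT, had a mean of 6.63. Slc7a12, Slc7a13 and Slc7a15 were dim. Among the cationic carriers Slc7a1, which takes up arginine and lysine, was the brightest, with a mean of 11.68.

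Of the SLC6 carriers, the brightest was Slc6a20a, a sodium-coupled carrier of proline and other imino acids, with a mean of 11.71 (the 95 percentile). Slc6a20b was dim, at the 17.5 percentile. Slc6a15, a carrier of branched-chain amino acids and proline, was at 10.63, 11.60 and 10.71 in wild type and 10.80, 11.38 and 10.84 in RAG-/-, with pair 2 highest. The creatine carrier Slc6a8 had a mean of 10.98. Slc6a17, a vesicle carrier of neutral amino acids in neurons, was at 10.37, 10.70 and 10.38 in wild type and 10.56, 11.54 and 10.23 in RAG-/-, highest in RAG-/- replicate 2.

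Carriers of classical transmitters were mostly dimmer. The glycine carrier Slc6a9 had a mean of 9.96, the noradrenaline carrier Slc6a2 of 6.95, the GABA carrier Slc6a11 of 6.73, the neuronal glycine carrier Slc6a5 of 6.34 and the dopamine carrier Slc6a3 of 6.21. The betaine and GABA carrier Slc6a12 did not pass the filter. Slc36a4, a lysosomal and surface carrier of proline and tryptophan, was at 10.61, 10.90 and 10.03 in wild type and 10.46, 11.16 and 10.49 in RAG-/-, and was the brightest SLC36 member.

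**Figure D1:**
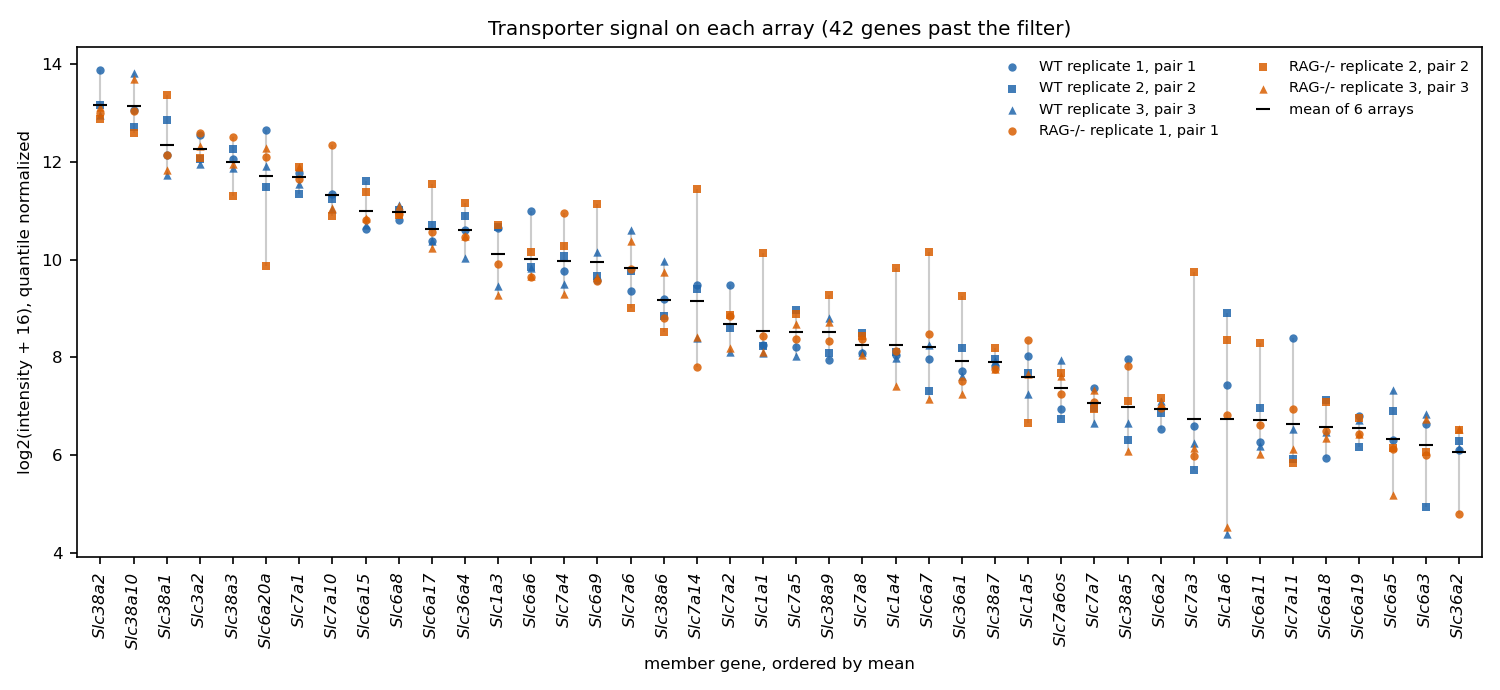
Signal of the 42 transporter genes past the filter on each of 6 arrays, as log2(intensity + 16) after quantile normalization, ordered by mean. Blue points are wild type and orange points RAG-/- by description, circles, squares and triangles mark pairs 1, 2 and 3, grey lines span the arrays and black dashes are means. The means fall from 13.16 for Slc38a2 to 6.07 for Slc36a2, and orange squares (RAG-/- replicate 2) mark many of the extreme values.

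The members were then split by how far the arrays lay apart, taken as the highest minus the lowest of the 6. A range under 1 was called steady and a range of 2 or more array-varying. The median range was 1.44 for members and 1.08 for all genes past the filter. Steady members numbered 10 of 42 (23.8%), against 44.6% of all genes, and array-varying members 11 of 42 (26.2%), against 14.3% of all genes. The steady member nearest the limit was Slc6a15, at 0.96, and the next outside it Slc38a2, at 1.01. On the other side Slc36a1 was the nearest array-varying member, at 2.01, and Slc6a3 and Slc38a5 fell short at 1.89.

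Much of the spread lay in 1 array. Without RAG-/- replicate 2, 21 of the 42 had a range under 1 (50%; 62.5% of all genes) and 3 a range of 2 or more (7.14%; 6.58% of all genes). The 3 were Slc1a6, Slc7a11 and Slc6a5.

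The steady set spanned bright and dim carriers. Slc6a8, the creatine carrier, had the smallest range, 0.32. It was at 10.81, 11.01 and 11.12 in wild type and 10.94, 10.91 and 11.10 in RAG-/-, and the groups overlapped fully. The other Slc6a8 probe set was dimmer, with a range of 0.78.

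Slc7a8 was at 8.10, 8.49 and 8.11 in wild type and 8.38, 8.44 and 8.05 in RAG-/-, a range of 0.43. Slc38a7, a lysosomal glutamine carrier, was at 7.83, 7.96 and 7.93 in wild type and 7.76, 8.19 and 7.77 in RAG-/-. In both genes the groups overlapped. Slc7a1 was at 11.76, 11.35 and 11.55 in wild type and 11.64, 11.90 and 11.90 in RAG-/-. Its other tested probe set had a range of 0.67. Slc7a5 was at 8.22, 8.96 and 8.03 in wild type and 8.37, 8.89 and 8.68 in RAG-/-, with pair 2 slightly above the rest.

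Slc3a2 and Slc6a15, whose values stand above, were steady as well. The other 3 steady members had means of 7.07 or less. Slc7a7 was at 7.38, 6.97 and 6.66 in wild type and 7.10, 6.95 and 7.33 in RAG-/-. Slc6a19, the neutral carrier of kidney and gut, was at 6.81, 6.18 and 6.73 in wild type and 6.44, 6.77 and 6.44 in RAG-/-. Slc6a2 was at 6.54, 6.87 and 7.12 in wild type and 6.96, 7.18 and 7.04 in RAG-/-. None of these showed a group or pair set apart, and low signals are compressed on this scale.

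**Figure D2:**
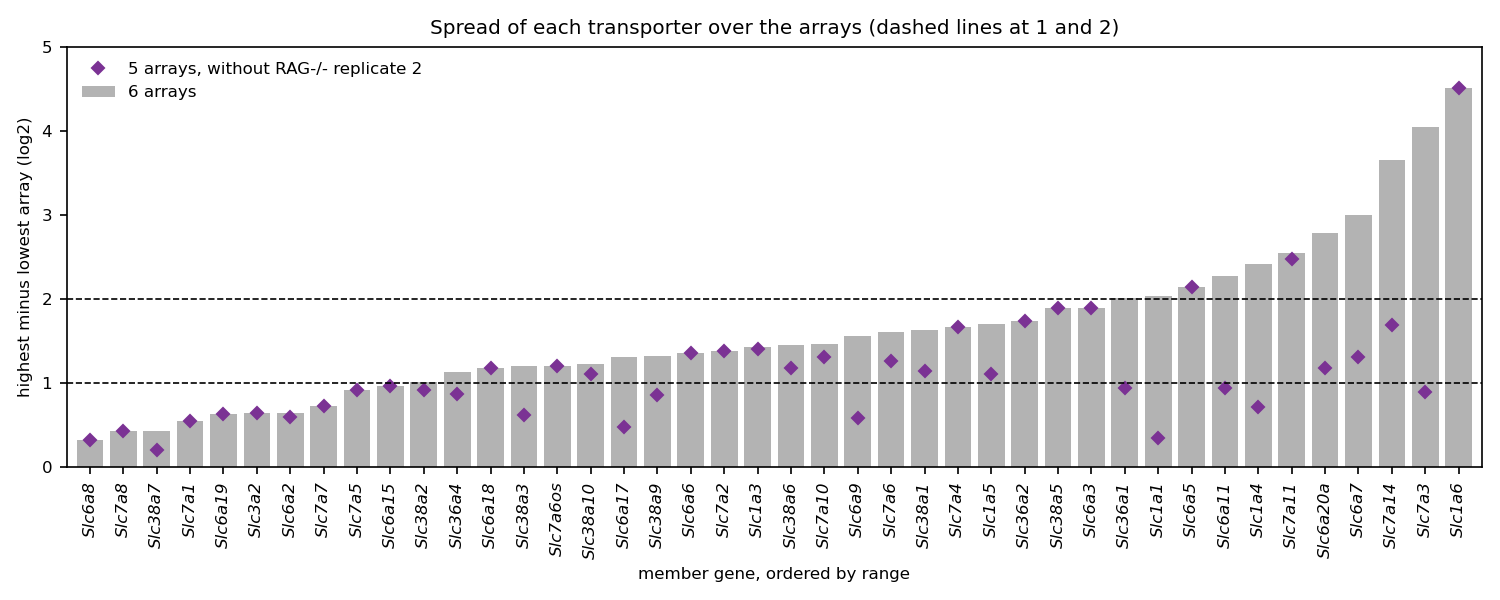
Highest minus lowest array of each of the 42 transporter genes on the log2 scale. Bars use 6 arrays, diamonds use 5 arrays without RAG-/- replicate 2, and dashed lines mark the limits of 1 and 2. Bars run from 0.32 for Slc6a8 to 4.51 for Slc1a6, and the diamonds of Slc7a3 and Slc1a1 drop to 0.89 and 0.34.

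The largest group among the array-varying members was high in RAG-/- replicate 2 alone. In 7 of 42 members (16.7%) that array lay at least 1 above every other, against 4.82% of all genes. The 7 were Slc7a3, Slc7a14, Slc1a1, Slc1a4, Slc6a7, Slc6a11 and Slc36a1.

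Slc7a3, a cationic carrier found mainly in neurons, was at 6.59, 5.70 and 6.26 in wild type and 5.98, 9.75 and 6.15 in RAG-/-. RAG-/- replicate 2 exceeded the next array by 3.16, or 8.94-fold on this scale. The other 5 arrays lay within 0.89 of each other. Slc7a14, a lysosomal relative of the cationic carriers, was at 9.49, 9.39 and 8.40 in wild type and 7.80, 11.45 and 8.42 in RAG-/-. It differed among the other arrays too, by 1.69.

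Slc1a1, the neuronal carrier of glutamate and cysteine, was at 8.25, 8.23 and 8.09 in wild type and 8.44, 10.13 and 8.11 in RAG-/-. Without RAG-/- replicate 2 its range was 0.34, so this was a steady gene with 1 high array. Its other tested probe set was highest in the same array, at 7.79. Slc1a4, which exchanges alanine, serine and cysteine, was at 8.05, 8.12 and 7.98 in wild type and 8.13, 9.82 and 7.41 in RAG-/-. Slc6a7, a proline carrier of brain synapses, was at 7.96, 7.32 and 8.25 in wild type and 8.47, 10.16 and 7.16 in RAG-/-. In both genes RAG-/- replicate 2 was the highest and RAG-/- replicate 3 the lowest, so that the extremes fell in the same group.

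Slc6a11, which clears GABA mainly into astrocytes, was at 6.27, 6.97 and 6.20 in wild type and 6.61, 8.30 and 6.03 in RAG-/-. Slc36a1, a proton-coupled carrier of lysosomes, was highest in RAG-/- replicate 2 at 9.26 and between 7.25 and 8.19 elsewhere. Over all 42 members RAG-/- replicate 2 was the highest array in 15 and the lowest in 9.

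The same array carried the most signal of neurons, and its means of astrocyte and oligodendrocyte markers were the highest as well. The astrocyte mean was 12.24 there, against 10.52 to 11.78 elsewhere, and the oligodendrocyte mean 11.93, against 9.84 to 11.78. The mean of the 9 measured neuron markers was 10.75, 11.14 and 10.05 in wild type and 10.53, 12.55 and 9.38 in RAG-/-, and their summed intensity lay between 14108.0 and 36370.0 in wild type and between 8718.0 and 74658.0 in RAG-/-. All 9 passed the filter on dim probe sets. Of 6 measured markers of catecholamine and serotonin cells the mean was between 6.37 and 6.89 in 5 arrays and 10.74 in RAG-/- replicate 2. Tph2, the serotonin-forming enzyme, was at 13.82 there and at most 6.42 elsewhere. The dopamine and noradrenaline carriers did not share this peak: in that array Slc6a3 was at 6.07, between the other arrays, and Slc6a2 at 7.18, beside up to 7.12 elsewhere. Th, the enzyme of catecholamine synthesis, was at 7.30 there and highest, at 9.70, in RAG-/- replicate 1. Dbh, of the same list, was lowest in RAG-/- replicate 2, at 5.52 against 5.62 to 7.89 elsewhere. The peak of the list mean was thus not shared by all its markers. The part of tissue content in the high carriers was not tested.

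Other members went by pair. Both arrays of pair 2 lay above the other 4 in 12 of 42 members (28.6%; 13.0% of all genes) and below them in 3 (7.14%; 17.0% of all genes). Both arrays of pair 3 lay below the other 4 in 8 of 42 (19.0%), near the 17.0% of all genes, and above them in 5 (11.9%; 21.4% of all genes). Slc1a6, the glutamate carrier of cerebellar Purkinje cells, showed this most and had the largest range of the set. It was at 7.44, 8.91 and 4.40 in wild type and 6.82, 8.35 and 4.54 in RAG-/-. Pair 3 was at the level of dim probe sets and pair 2 the highest, in both genotypes.

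The 6 measured markers of Purkinje and granule cells had means of 13.06 and 12.06 in pair 2 and of 8.02 and 9.05 in pair 3, wild type first, with pair 1 between and summed intensities between 1865.0 and 53014.0 in wild type and between 3755.0 and 28498.0 in RAG-/-. Pair 3 was lowest and pair 2 highest here too. All 6 passed the filter, and Pcp2 ran from 7.15 to 12.55.

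Slc1a3, the glutamate carrier of astrocytes, had pair 3 lowest as well. Its brightest probe set was at 10.64, 10.67 and 9.46 in wild type and 9.90, 10.70 and 9.27 in RAG-/-. The other tested probe sets of Slc1a3 spread further, with a range of up to 3.30, at 9.15, 10.24 and 7.46 in wild type and 9.22, 10.40 and 7.10 in RAG-/-. The brightest probe set therefore gave the smallest view of this difference. The 8 astrocyte markers had means of 11.78, 11.20 and 10.84 in wild type and 11.05, 12.24 and 10.52 in RAG-/-. These means were lowest in pair 3 and highest in RAG-/- replicate 2.

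Slc6a6, the taurine carrier, gave unlike pictures by probe set. The brightest was at 11, 9.85 and 9.82 in wild type and 9.64, 10.16 and 9.66 in RAG-/-, with WT replicate 1 high. The other tested probe set was at 9.13, 9.30 and 5.41 in wild type and 8.74, 10.09 and 5.11 in RAG-/-, a range of 4.98 with pair 3 far below. Slc6a6 thus counted as neither steady nor array-varying by its brightest probe set and would have had the largest range of all by the other. This remark was made after the values were seen.

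Other members went the opposite way or followed pair 1. Slc6a20a was at 12.65, 11.48 and 11.91 in wild type and 12.10, 9.87 and 12.28 in RAG-/-. RAG-/- replicate 2 lay 1.60 below every other array, the only member at least 1 below (2.38%; 3.02% of all genes), and WT replicate 2 was next. The epithelium markers were lowest in RAG-/- replicate 2 too, with a mean of 12.80 against 13.53 to 13.76 in the other arrays. Their summed intensities lay between 142027.0 and 152519.0 in wild type and between 95875.0 and 160072.0 in RAG-/-. Their mean in WT replicate 2 was not low, at 13.69. Fibroblast markers were lowest in RAG-/- replicate 2 as well, at 9.46 against 10.54 to 11.71, and endothelium markers at 7.95 against 8.11 to 9.58. Like Slc6a20a, these lists were highest in WT replicate 1. The part of any of these cell types in Slc6a20a was not tested. Cltrn, or collectrin, a membrane protein that partners SLC6 amino acid carriers, was at 10.65, 9.09 and 11.26 in wild type and 10.75, 7.94 and 11.45 in RAG-/-. In Cltrn, as in Slc6a20a, the arrays of pair 2 were the lowest, RAG-/- replicate 2 first.

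Slc7a11 was at 8.40, 5.93 and 6.53 in wild type and 6.95, 5.85 and 6.13 in RAG-/-. Pair 1 was highest and WT replicate 1 exceeded the next array by 1.45. The other tested probe set had pair 1 highest too, at 7.68 and 7.22. The 8 macrophage markers also had their highest means in pair 1, at 9.82 in WT replicate 1 and 9.55 in RAG-/- replicate 1, against 7.51 to 8.51 elsewhere. So did the 8 tested endothelium markers, at 9.58 and 8.80 in these arrays, against 7.95 to 8.57 elsewhere. The part of either cell type was not tested. In all, pair 1 was highest in 5 of 42 members (8.75% of all genes), among them Slc3a2, Slc7a10, Slc1a5 and Slc38a5.

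**Figure D3:**
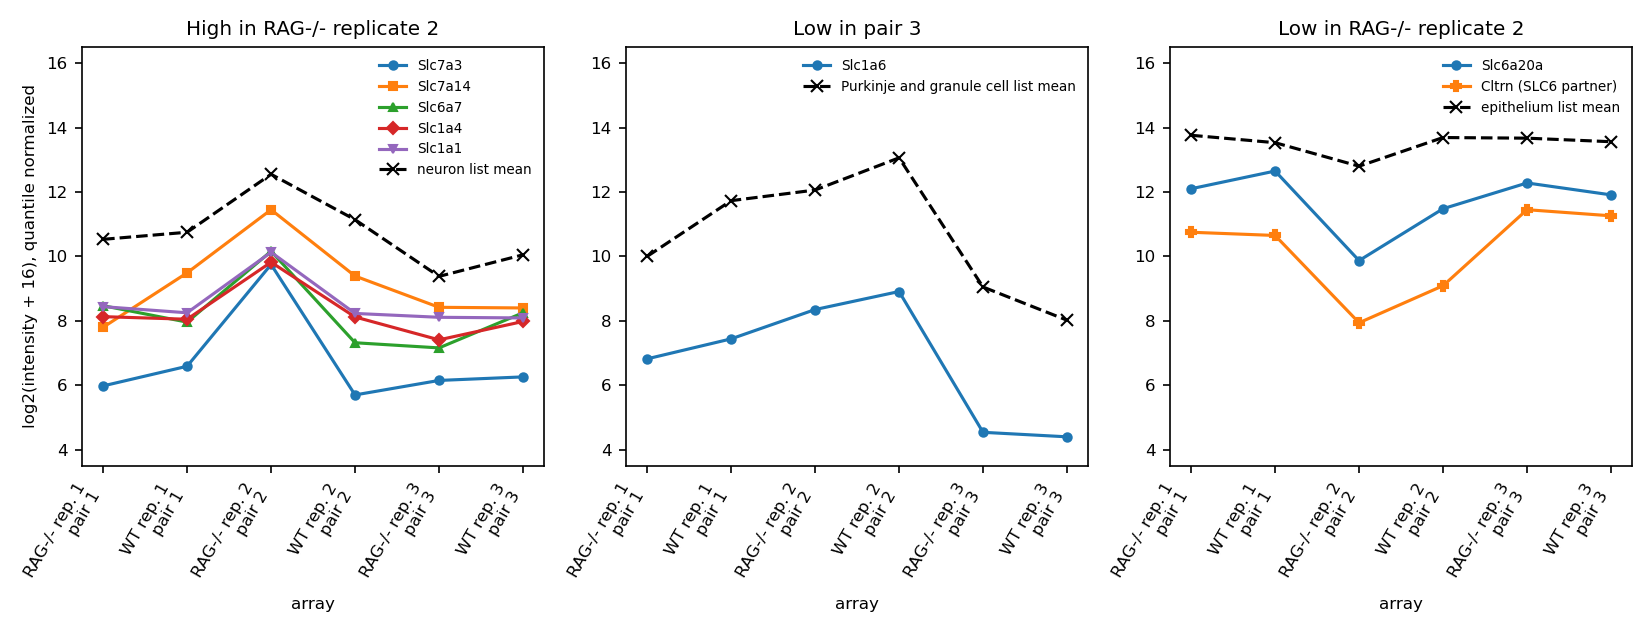
Signal of array-varying transporters beside the mean of cell type markers (black dashed line), on each of 6 arrays grouped by pair, as log2(intensity + 16). Lines only join the values of a gene, since arrays have no order. Other marker lists that were highest or lowest in RAG-/- replicate 2 are not drawn. The left panel peaks in RAG-/- replicate 2, where Slc7a3 was at 9.75, Slc1a6 in the middle panel falls to 4.40 and 4.54 in pair 3, and Slc6a20a and Cltrn in the right panel are lowest in RAG-/- replicate 2.

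Upstream sequence is shown for some of the 7 members high in RAG-/- replicate 2 (Slc1a1, Slc1a4 and Slc7a14) and for Slc7a11. The activation of Slc7a11 by amino acid shortage through the factor ATF4 is well known. Windows of the other members were counted but are not shown. The RefSeq promoter table of build GRCm38.p6 held 41 of the 57 genes, with 59 windows of 300 bases, from 250 before to 50 after each start. Capitals mark the amino acid response motif TGATGNAAN and the GC box GGGCGG, each searched on both strands, and the motifs do not overlap in these windows. The sequences run 5′ to 3′ on the strand of the gene.
Slc7a11, chr3:50443564-50443863 (- strand): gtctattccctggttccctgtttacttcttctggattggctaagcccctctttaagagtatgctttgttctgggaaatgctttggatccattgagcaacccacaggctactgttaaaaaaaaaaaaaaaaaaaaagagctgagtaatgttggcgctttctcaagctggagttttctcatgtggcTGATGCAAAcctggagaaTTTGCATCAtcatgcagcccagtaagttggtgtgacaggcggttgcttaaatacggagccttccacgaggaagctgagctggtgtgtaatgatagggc
Slc1a4, chr11:20332664-20332963 (- strand): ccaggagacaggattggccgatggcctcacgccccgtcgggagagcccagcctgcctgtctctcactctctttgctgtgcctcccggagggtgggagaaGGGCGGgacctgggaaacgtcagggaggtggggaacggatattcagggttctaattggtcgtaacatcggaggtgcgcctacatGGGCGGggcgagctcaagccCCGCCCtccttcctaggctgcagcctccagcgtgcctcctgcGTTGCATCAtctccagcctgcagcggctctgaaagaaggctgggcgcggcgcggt
Slc1a1, chr19:28834885-28835184 (+ strand): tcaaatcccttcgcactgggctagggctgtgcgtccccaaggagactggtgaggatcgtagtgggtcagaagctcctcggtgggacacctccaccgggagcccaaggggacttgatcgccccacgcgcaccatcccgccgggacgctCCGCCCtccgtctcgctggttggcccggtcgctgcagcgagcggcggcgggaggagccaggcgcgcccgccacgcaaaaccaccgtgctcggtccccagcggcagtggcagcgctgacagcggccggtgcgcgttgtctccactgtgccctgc
Slc7a14, chr3:31310270-31310569 (- strand): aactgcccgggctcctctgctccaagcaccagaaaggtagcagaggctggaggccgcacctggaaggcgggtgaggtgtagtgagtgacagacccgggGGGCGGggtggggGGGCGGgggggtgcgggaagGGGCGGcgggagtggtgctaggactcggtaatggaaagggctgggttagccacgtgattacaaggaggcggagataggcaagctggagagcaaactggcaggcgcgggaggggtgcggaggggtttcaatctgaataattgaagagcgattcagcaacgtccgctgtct

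The window of Slc7a11 held 2 copies of TGATGNAAN in opposite orientation, beginning 66 and 48 bases before the start, and no GGGCGG. The window of Slc1a4 held 1 copy, beginning 5 bases before the start, and 3 copies of GGGCGG. Slc1a1 and Slc7a14 held no TGATGNAAN in this window and 1 and 3 copies of GGGCGG. TGATGNAAN was found in 5 of the 59 member windows (8.47%) and in 3.95% of all 32851 windows, and GGGCGG in 49.2% and 35.7%. The member genes with TGATGNAAN were Slc1a4, Slc7a11, Slc7a7 and Slc6a21. These matches are letters in a window and not shown to be sites.

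The genotypes were compared with limma over all 27022 probe sets past the filter. By description, 0 of 75 member probe sets passed an adjusted p of 0.05, where 0 of 27022 did (0%), and by title 0 of 75, again with 0% of all. At an unadjusted p under 0.05 stood 1 of 75 member probe sets by description (0.711% of all) and 0 by title (1.23% of all). With the pair as a block the adjusted calls were 0 of 75 under either reading (0% of all by description and 0.0037%, 1 probe set, by title), and unadjusted ones 1 under each (2.35% of all by description and 4.14% by title). The smallest adjusted p of a member was 1 by description and, with the block by title, 0.926. No member probe set therefore passed the threshold, which does not show that levels were equal. The unadjusted ones were Slc6a5 by description, a dimmer Slc7a2 probe set by description with the block (a difference of -0.94) and Slc7a14 by title with the block.

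Over the 42 genes the median difference, RAG-/- minus wild type, was 0.13 by description, with 27 higher and 15 lower, beside -0.01 for all genes, of which 48.9% were higher. By title it was 0.18, with 28 higher and 14 lower, beside -0.02 and 46.1%. Both medians turned without 1 array: without RAG-/- replicate 2 the medians were -0.05 and -0.07. The mean over the 42 genes was 9.09, 8.98 and 8.87 in wild type and 8.96, 9.39 and 8.77 in RAG-/-, so that RAG-/- held the highest and the lowest array.

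Markers of some other cell types differed between the genotype means beside these differences, none with an adjusted call and not evenly over the arrays. All 9 measured oligodendrocyte markers were higher in RAG-/- under both readings, with medians of 1.08 by description and 1.31 by title. Their summed intensities lay between 32346.0 and 44653.0 in wild type and between 33483.0 and 74609.0 in RAG-/- by description. Their mean was high in RAG-/- replicates 2 and 3, at 11.93 and 11.78. In RAG-/- replicate 1 it was 10.17, within the wild type arrays by description (10.72, 10.49 and 9.84). All 9 fibroblast markers were lower in RAG-/- under both readings, with medians of -1.02 and -0.43. Their summed intensities lay between 27328.0 and 40927.0 in wild type and between 8423.0 and 21323.0 in RAG-/- by description. The 8 tested endothelium markers were lower in 8 of 8 by description and in 6 of 8 by title (medians -0.54 and -0.08). The 10 epithelium markers were lower in 10 of 10 by description and in 9 of 10 by title (medians -0.17 and -0.37). Only RAG-/- replicate 2 had a low mean of these, at 12.80. RAG-/- replicates 1 and 3 were at 13.76 and 13.67 and wild type at 13.53 to 13.69. The astrocyte, macrophage and ependyma lists split by description, with 5, 5 and 3 higher and 3 of each lower. By title 6, 4 and 5 were higher and 2, 4 and 1 lower. Of the 9 neuron markers 7 were higher and 2 lower under both readings (medians 0.14 and 0.32). Of the 6 Purkinje and granule cell markers 6 were lower by description, and by title 5 were higher and 1 lower (medians -0.49 and 0.55). Of the 6 catecholamine and serotonin markers 5 were higher and 1 lower under both readings (medians 1.75 and 2.15). The part of any of these markers in the transporter differences was not tested.

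In 1 member under each reading the groups did not overlap. By description, the 3 RAG-/- arrays lay above the 3 wild type arrays in 0 of 42 members (1.69% of all genes) and below in 1 (1.41% of all genes), and by title above in 1 (2.20% of all) and below in 0 (2.53% of all). The member lower by description was Slc6a5, the glycine carrier of inhibitory hindbrain and spinal neurons, at 6.32, 6.91 and 7.33 in wild type and 6.12, 6.16 and 5.18 in RAG-/-. It differed by -1.03 (SE 0.42), from 6.85 ± 0.51 to 5.82 ± 0.55 (SD, n = 3; exact permutation p = 0.1, limma adjusted p = 1). Groups that do not overlap always give this exact p, the smallest possible, so it was fixed by the choice of the gene. The gap between the groups was between 6.32 and 6.16, and the mean of the gene lay at the 45.3 percentile, not far above the filter. The other Slc6a5 probe set did not pass the filter and did not share the difference, at 0.06 by description. By title the brightest Slc6a5 probe set differed by -0.90 with overlapping groups.

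The member higher by title was Slc7a1, at 11.76, 11.90 and 11.90 in the arrays titled RAG and 11.64, 11.35 and 11.55 in the others. The difference was 0.33 (SE 0.21), or 1.26-fold (exact permutation p = 0.1, limma adjusted p = 1). Here too the exact p was fixed by the lack of overlap. By description the difference was 0.26, with overlapping groups. The other tested Slc7a1 probe set differed by 0.22 by title and by -0.02 by description, with overlap in both.

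The medians by role lay between -0.20 and 0.33. The 5 cationic SLC7 carriers had a median of 0.26 by description and 0.33 by title, with 4 higher and 1 lower in each. The 5 SLC1 carriers had -0.10 (2 higher, 3 lower) and 0.19 (4 higher, 1 lower), so the sign turned with the reading. The 6 SLC7 light subunits had 0.09 and 0.01, the 5 transmitter carriers of SLC6 0.22 and 0.28 and the 6 neutral SLC6 carriers 0.08 and 0.04. The 3 SLC36 carriers had 0.16, with 2 higher and 1 lower, and by title 0.30, with 3 higher and 0 lower. The sign also turned with the reading for the 8 SLC38 carriers, at -0.04 and 0.08, and for the 2 tested carriers of osmolytes and creatine, at -0.20 and 0.21.

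Within pairs the sign was rarely kept, in members as in all genes. By description 3 members were higher in RAG-/- in all 3 pairs (7.14%; 9.75% of all genes) and 4 lower (9.52%; 11.3% of all genes). The higher ones were Slc38a1, Slc3a2 and Slc1a1, where Slc1a1 differed by 0.19, 1.90 and 0.02 in pairs 1, 2 and 3. The lower ones were Slc38a10, Slc38a6, Slc7a11 and Slc6a5, where Slc7a11 differed by -1.45, -0.08 and -0.39. By title 5 were higher (11.9%; 10.6% of all genes), namely Slc7a1, Slc36a4, Slc7a14, Slc7a2 and Slc36a2. By title 4 were lower (9.52%; 15.0% of all genes), namely Slc6a8, Slc7a6, Slc7a8 and Slc6a18.

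Slc7a14 was the 1 member gene with an unadjusted p under 0.05 by title with the block, and is named after its value was seen. Its pair differences by title were 1.69, 2.06 and 0.02, a mean of 1.26 (limma with the block, SE 0.40, adjusted p = 0.926). By description the first of these turns, the mean is 0.13, and the gene does not keep its sign.

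**Figure D4:**
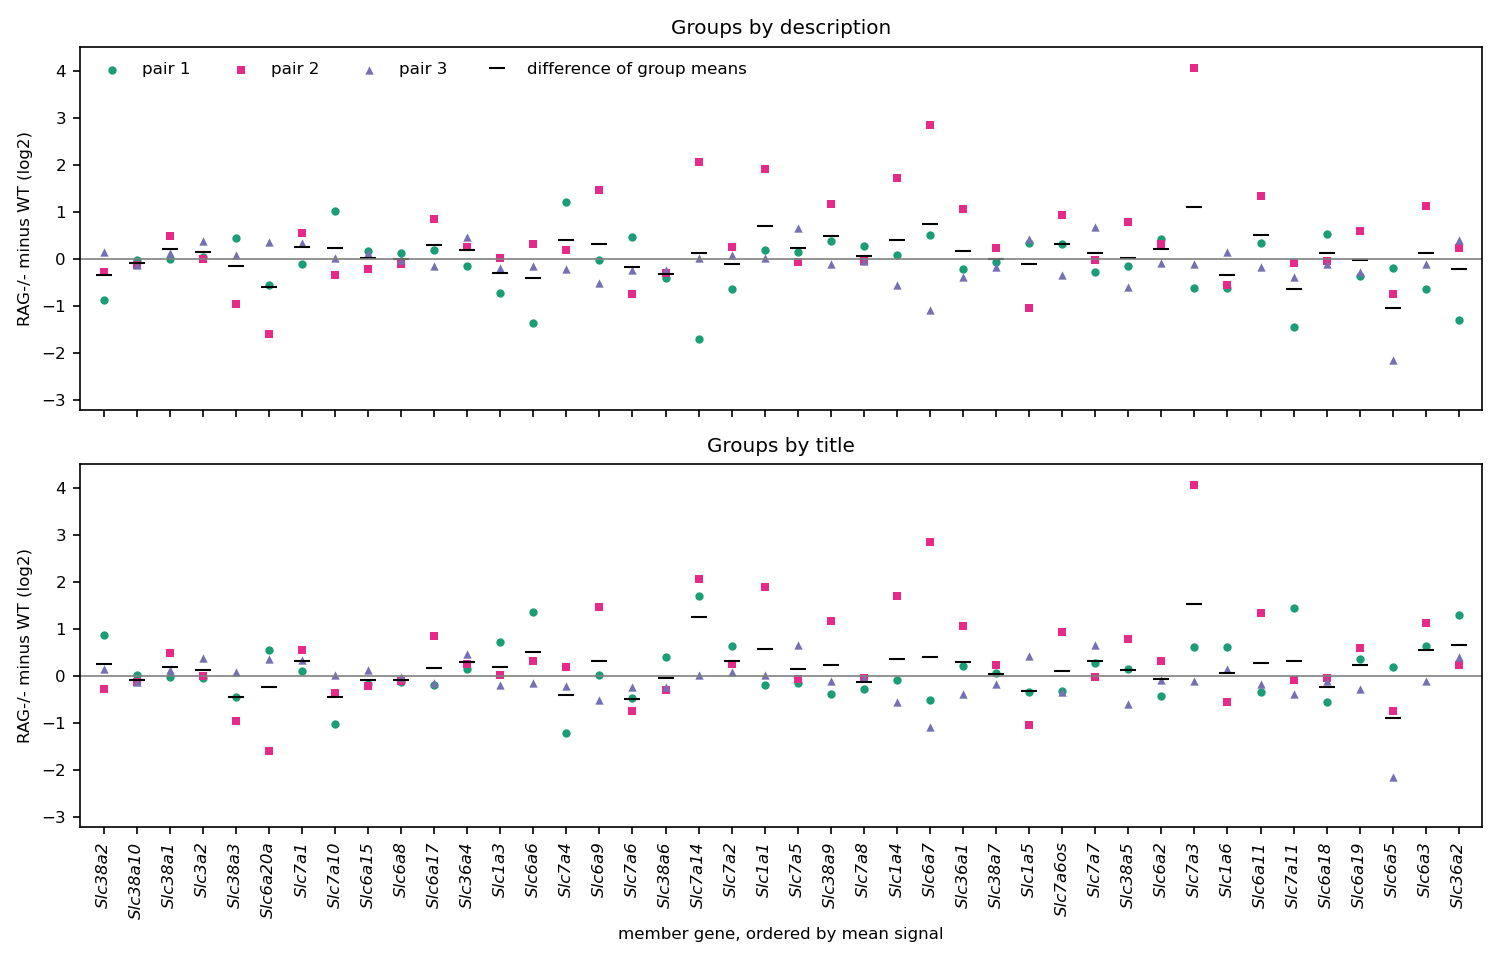
Difference of RAG-/- minus wild type on the log2 scale in each pair (coloured points) and between group means (black dashes) for the 42 transporter genes, by description (upper panel) and by title (lower panel). Only pair 1 changes sign between the panels. Pair 2 gives most of the large values, up to 4.05 for Slc7a3, and points scatter on both sides of 0 for most genes.

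Other genes of amino acid and transmitter handling gave 0 adjusted calls in either direction under either reading. Those named here had the smallest p of their list by description, other than Slc32a1 and Asns, which were chosen after their values were seen. Over all genes past the filter 48.9% were higher by description and 46.1% by title, with medians of -0.01 and -0.02. Of 16 tested carriers from other families, 7 were higher and 9 lower by description, with a median of -0.05, and the median by title was -0.22. Slc25a12, which moves aspartate and glutamate across the mitochondrial membrane, was at 11.74, 11.92 and 11.60 in wild type and 12.09, 12.02 and 11.90 in RAG-/-, with overlap. Slc32a1, which loads GABA and glycine into vesicles, was at 9.53, 9.66 and 8.13 in wild type and 9.27, 11.91 and 7.48 in RAG-/-. RAG-/- replicate 2 was again the highest array.

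Of 24 tested genes of amino acid metabolism, 19 were higher and 5 lower by description, with a median of 0.17. By title 14 were higher and 10 lower. Their mean was 10.10, 10.13 and 9.79 in wild type and 10.28, 10.69 and 9.74 in RAG-/-. The highest and the lowest array were thus both RAG-/-. Psat1, an enzyme of serine synthesis, was at 10.67, 10.41 and 10.51 in wild type and 11.21, 10.87 and 11.03 in RAG-/-. Abat, which breaks down GABA, was at 11.89, 12.10 and 12.33 in wild type and 12.42, 13.15 and 12.39 in RAG-/-. In both the groups did not overlap by description, at differences of 0.51 and 0.55, and overlapped by title, at 0.15 and 0.19. The limma adjusted p was 1 by either reading. Naming genes by their smallest p by description favours groups that do not overlap. Over all genes, RAG-/- lay above wild type without overlap by description in 1.69%. Asns, the asparagine-forming enzyme, was at 9.55, 9.91 and 8.82 in wild type and 9.29, 11.95 and 7.54 in RAG-/-, and so had its highest and its lowest value within RAG-/-.

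Of 16 tested genes of the amino acid response, 10 were higher and 6 lower by description, with a median of 0.14, and by title the median was 0.19. Nupr1, a stress-induced nuclear protein, was at 9.72, 7.32 and 8.04 in wild type and 7.63, 7.11 and 7.60 in RAG-/-, with WT replicate 1 high. Trib3, a target of ATF4, was at 7.38, 6.84 and 7.42 in wild type and 7.42, 7.16 and 8.22 in RAG-/-, with overlap.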

How the data were processed

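Each of 6 samples was measured on 1 single-colour oligonucleotide array. The deposited table gives 1 linear intensity per probe set. The software is not given in the sources used here. The arrays' trimmed means were nearly equal, between 497.1 and 497.5. After 64 control probe sets were left out, log2(intensity + 16) was quantile normalized, since the 75th percentiles differed by 0.232. Probe sets in the lowest 40% of mean value were left out, which kept 27022. Differences were tested with limma 3.58.1 in R 4.3.3 (lmFit, eBayes with trend), two-sided, with Benjamini-Hochberg adjustment over all of them. The number of arrays limits the precision, and p-values reflect only how far these arrays differ, which may be technical.

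The platform annotation gave 34945 probe sets with 1 symbol, 932 with several and the rest unnamed here. All 57 member genes matched the mouse gene table by gene number. The brightest probe set stood for a gene. Within the pairs given by a shared title code, the arrays' departures from their group means had correlations of 0.29, 0.39 and 0.58, and between -0.42 and 0.01 across them, so the codes were taken to pair the arrays and a blocked fit was made.

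Values by array were given for the 12 members of highest mean, the 10 of largest and the 10 of smallest range and those whose groups did not overlap, and for a few others chosen after their values were seen. The members, the lists and these rules were chosen with earlier results of these data known. Data were simulated for RAG-/- minus wild type over 27022 probe sets, of which 200 were changed. Of changes of 1, 2 and 3 log2 units, 0%, 49% and 94.5% were recovered. The simulated noise was normal and independent, without pairs or an outlying array. These rates therefore need not hold for the real arrays.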

Additional observations from a re-analysis of the deposited data

How the results depend on the processing

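Under each alternative tried, 0 member probe sets passed the threshold by description and 0 by title. Over all probe sets, the count of 0 by description was between 0 and 4 when single arrays were left out, with 4 without RAG-/- replicate 2. The count of 0 by title was 1 with the replicate block and 2 with array weights, and 0 when single arrays were left out. The median member difference by description, 0.13, was between -0.05 and 0.21 without single arrays and between 0.02 and 0.13 under the other settings. By title, 0.18 became -0.07 to 0.31 without single arrays and -0.01 with array weights. Leaving out RAG-/- replicate 2 turned both medians. The count of 10 steady members was between 10 and 22 without single arrays, the highest without RAG-/- replicate 2, where filter and probe sets were taken anew. The count of 11 array-varying members was between 3 and 11 without single arrays, 6 with pseudocount 64, 13 with pseudocount 1, 6 with the lowest 60% left out, 14 with no filter on dim probe sets and 19 with a limit of 1.5. A higher pseudocount compresses dim signals, and a stricter filter leaves fewer genes. The differences of Slc6a5 and Slc7a1 kept their sign under all settings that gave a value. For Slc6a5, averaging the probe sets of a gene gave the same -1.03, since only 1 passed the filter, so that setting was no separate check. Blocking by pair changed no member call. Slc6a5 was left out by the stricter filter, so it has no value there.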
